A study of Mus musculus with 16 samples.

Results

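Long exons that lie inside genes were followed by their share of the gene's exon counts in mHiPPoE-2 cells, a transformed mouse hippocampal neuron line. The exon table divides each gene into bins, stretches that do not overlap each other, and the bins described here are at least 400 bp long. They are neither among the first 2 nor among the last 2 bins of their gene, belong to a gene that is not joined with a neighbour, lie in no row of the intron table, and average at least 50 counts over the 16 libraries. Of 468583 bins, 66736 were at least 400 bp long, and 62387 of these belonged to unjoined genes. Of those, 23129 were not among the first 2 or last 2 bins of their gene, and 2020 of these reached 50 counts. Another 261 were left out because an intron row holds them, which leaves 1759 bins in 1349 genes, of 53333 gene rows in all. There were 1047 genes with 1 such bin and 302 with several, up to 7 in 1 gene. The bins were chosen by their mean count over all 16 libraries, beside length and position, so their levels are a description.

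The 16 libraries fall into 8 groups of 2: METTL3 KO, RBM45 KO clone 1 and clone 2, KO rescue clone 1 and clone 2, Cas9 control clone 1 and clone 2, and WT. All are mHiPPoE-2 cells, which derive from Crl:CFW(SW)-024 mice per the labels. The METTL3 KO was made with Cas9 and is a single clonal isolate. RBM45 KO cells were also made with Cas9. The KO rescue cells are RBM45 KO cells that carry F-HA-tagged RBM45_mut[delta]gRNA. The Cas9 controls had Cas9 without a guide RNA, and WT cells were unedited and untreated. METTL3 KO therefore stands for 1 clone, each other edited genotype for 2, and WT for the parental line, and nothing states that the 2 libraries of a group came from separate cultures.

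N6-methyladenosine (m6A) is a methyl mark on adenosines of messenger RNA. It is written in the nucleus by a complex around the methyltransferase METTL3, mostly at the consensus in which GGACU is the commonest form, and is read by proteins such as those of the YTHDF family. In mammalian mRNA it is known to be dense in long internal exons and around stop codons, and sparse near exon junctions. RBM45 is an RNA-binding protein of neurons that has been described as binding m6A-containing RNA and GAC-rich sequence. The study asked about RBM45 in gene expression and splicing, and the share of a long exon within its gene is one place where such a change could be seen.

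The name long internal exon describes only part of these bins. In GENCODE M21 coding transcripts, 602 bins (34.2%) lay in an exon that is inner in every transcript holding it, and the median bin of these was 100% coding. The last exon held 923 bins (52.5%), whose median coding share was 6.70%. A last exon with alternative ends can be split into several bins, but whether this holds for these bins was not tested. Another 77 were in an exon that is internal or first, depending on the transcript, 75 in one that is internal or last, 61 in a first exon, 19 in non-coding transcripts, and 2 in no M21 exon. The bins are therefore called long internal bins here, internal by their order in the gene. There were 679 that were wholly coding and 395 with no coding base, and 1744 belonged to protein-coding genes.

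Stretches of 6 inner-exon bins are shown because the results turn on these bins or because they are rich in the searched motifs. Each is the stretch of 240 bases in its bin with the most GGACT matches, then the most GACGAC matches, read 5′ to 3′ on the transcribed strand from GENCODE M21 transcripts (GRCm38). Capitals mark GGACT, the DNA form of the m6A consensus, and GACGAC, a hexamer RBM45 is known to prefer in vitro. A GACGAC match can overlap another GACGAC match by the letters GAC, but not a GGACT match. Only the transcribed strand was searched.
Cic, chr7:25273025-25273264, plus strand: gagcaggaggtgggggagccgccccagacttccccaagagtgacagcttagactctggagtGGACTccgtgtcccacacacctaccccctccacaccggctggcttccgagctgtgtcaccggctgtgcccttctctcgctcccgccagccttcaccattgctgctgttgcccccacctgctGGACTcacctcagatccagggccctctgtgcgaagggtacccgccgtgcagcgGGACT
Tnks1bp1, chr2:85052135-85052374, plus strand: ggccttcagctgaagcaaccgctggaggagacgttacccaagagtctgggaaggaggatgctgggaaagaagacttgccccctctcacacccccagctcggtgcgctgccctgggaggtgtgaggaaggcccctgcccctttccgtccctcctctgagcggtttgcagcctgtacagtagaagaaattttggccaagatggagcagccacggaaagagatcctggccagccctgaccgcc
Tor1aip2, chr1:156061918-156062157, plus strand: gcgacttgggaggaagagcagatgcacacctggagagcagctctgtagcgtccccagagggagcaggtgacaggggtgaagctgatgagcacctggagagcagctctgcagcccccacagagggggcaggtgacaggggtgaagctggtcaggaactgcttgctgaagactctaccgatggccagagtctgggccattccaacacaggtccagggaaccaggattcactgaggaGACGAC
Ythdf2, chr4:132204413-132204652, minus strand: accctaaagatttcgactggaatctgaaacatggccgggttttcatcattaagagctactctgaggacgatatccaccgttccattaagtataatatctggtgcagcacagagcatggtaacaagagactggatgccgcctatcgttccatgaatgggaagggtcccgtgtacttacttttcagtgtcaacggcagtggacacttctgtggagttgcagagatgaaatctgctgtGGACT
Srrm2, chr17:23819761-23820000, plus strand: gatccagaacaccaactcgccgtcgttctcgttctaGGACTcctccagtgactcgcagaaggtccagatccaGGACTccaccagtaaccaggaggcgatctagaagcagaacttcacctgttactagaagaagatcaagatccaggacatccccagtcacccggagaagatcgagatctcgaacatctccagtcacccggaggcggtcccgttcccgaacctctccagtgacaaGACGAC
Son, chr16:91656579-91656818, plus strand: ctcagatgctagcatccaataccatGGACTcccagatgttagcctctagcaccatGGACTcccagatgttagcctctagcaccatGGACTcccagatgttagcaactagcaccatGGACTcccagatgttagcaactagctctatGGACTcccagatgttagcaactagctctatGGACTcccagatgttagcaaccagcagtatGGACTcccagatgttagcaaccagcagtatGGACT
The Cic stretch holds 3 of the 6 GGACT matches of its bin, and the Ythdf2 stretch the single one of its bin. Son, a nuclear speckle protein with a repeat-rich central exon, has 8 of 15 matches in its stretch. The Tor1aip2 stretch has no GGACT and 1 GACGAC, the Srrm2 stretch has 2 GGACT and 1 GACGAC, and the Tnks1bp1 bin has no match to either motif. Cut into consecutive stretches of 240 bases, 21.7% of those in all long internal bins held GGACT and 2.26% held GACGAC. In the inner-exon class the shares were 23.2% and 3.62%.

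Libraries held 4854911 to 12156106 counts in exon bins, of which 135209 to 371329 fell in the long internal bins. Rbm45 RNA was 5.70 to 10.7 CPM (counts scaled to library size) in RBM45 KO libraries, 21.1 to 25.9 CPM in KO rescue and 12.8 to 16.6 CPM in controls, and Mettl3 RNA was 3.35 to 3.71 CPM in METTL3 KO and 8.78 to 11.6 CPM in WT. Of the labelled cell type's 9 neuron markers, 3 averaged at least 1 CPM (Map2, Syn1 and Tubb3), while Dcx, Nefl and Stmn2 were at 0 in all libraries. All 4 markers of neural progenitors were measured above 1 CPM, with sums of 567 to 1765 CPM. These sums were mostly Vim, which averaged 966 CPM, against 245 for Nes, 33.0 for Sox2 and 17.9 for Pax6. The summed fibroblast markers, all 4 of those measured above 1 CPM on average, ran from 420 to 453 CPM in METTL3 KO, 148 to 1515 CPM in RBM45 KO, 103 to 235 CPM in KO rescue, 98.1 to 1140 CPM in controls and 143 to 182 CPM in WT, and their part in the results was not tested. Among them Col1a1 averaged 399 CPM and ran from 29.2 to 1416 CPM over the libraries. Pdgfrb averaged 70.4 CPM, Thy1 5.86 and Col1a2 2.30. Astrocyte markers summed to 0 to 24.5 CPM with 1 of 3 above 1 CPM on average, oligodendrocyte markers to 0.303 to 2.92 CPM with none of 4, and microglia markers to 36.1 to 59.5 CPM with 2 of 4, mostly Cx3cr1, while Aif1 averaged 0.08 CPM.

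Long internal bins had a median length of 883 bp, 788 were at least 1000 bp and 103 at least 3000 bp. The median bin held 15.5% of its gene's exon counts, and the range over bins was 1.08% to 81.0%. In 69 bins the mean share was above 50%. The 13420 shorter internal bins that meet every other criterion had a median share of 5.20%. Per base, the long bins carried 1.19 times the counts of the rest of their gene at the median, against 2.35 times in the shorter bins. Both sets had to average 50 counts, a limit that asks for denser coverage in shorter bins. Its part in this difference was not tested.

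**Figure D1:**
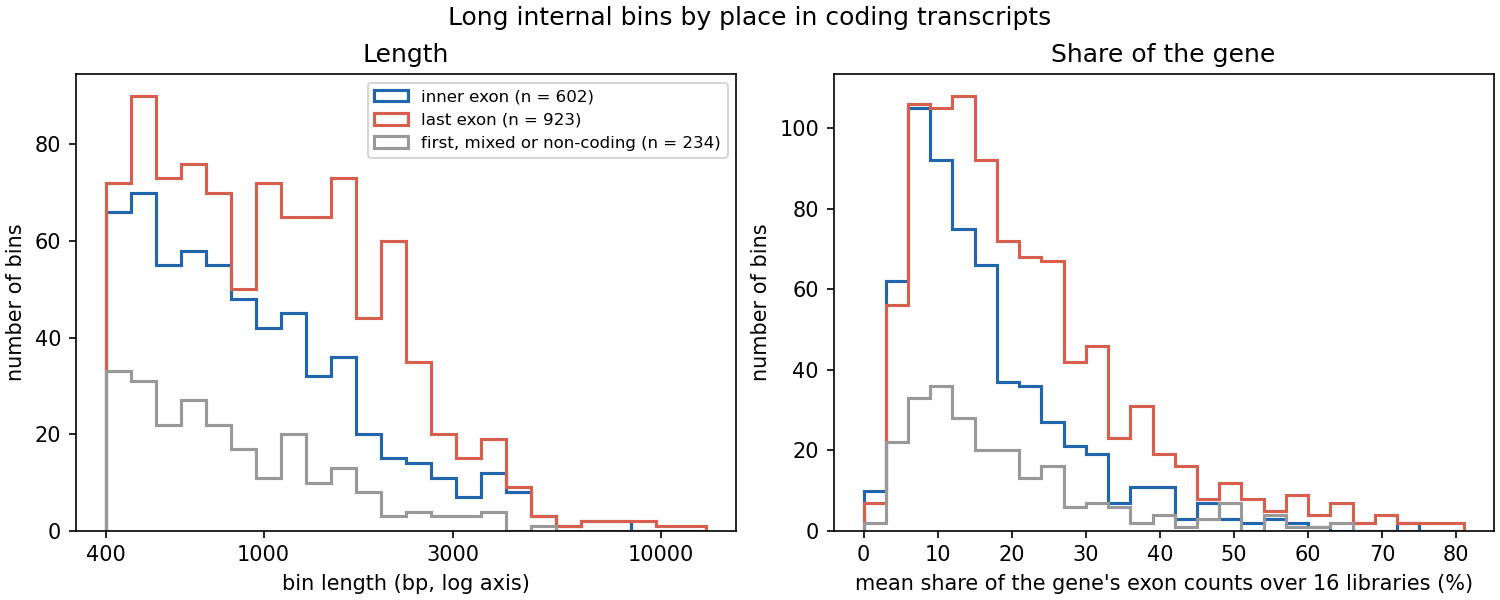
Left, the number of long internal bins by length in bp on a log axis; right, by mean share of the gene's exon counts in percent, each for the inner-exon class (602 bins), the last-exon class (923 bins) and all other classes. Lengths run from 400 to 12807 bp and mean shares from 1.08% to 81.0%.

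The longest bins were untranslated parts of last exons. Hnrnpr, which codes for a nuclear ribonucleoprotein, had the longest bin with 12807 bp (chromosome 4, 136342967 to 136355773, GRCm38). Ino80d, a subunit of the INO80 chromatin remodeller, followed with 10164 bp, and then the zinc finger gene Zfp738 with 9521 bp, the pseudophosphatase gene Styx with 8624 bp and Ssr1, a subunit of the translocon-associated complex, with 8342 bp. Their shares differed widely. Hnrnpr held 4.47% to 12.3% of its gene's exon counts over the 16 libraries, whereas Ino80d held 49.7% to 62.0% and Zfp738 51.9% to 78.8%. A long bin was thus not always a large part of its gene's reads.

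Highest counts per kilobase were found in the poly(A)-binding protein gene Pabpc1, the tropomyosins Tpm1 and Tpm4, the LIM protein gene Fhl1 and the fibronectin gene Fn1. These deeply counted bins kept narrow shares. The Tpm4 bin ran from 36.7% to 38.9% over all 16 libraries and the Fn1 bin from 3.72% to 4.36%. Relative to the mean share, Tpm4, Ranbp2, Tmem184b, Gja1 and Arf4 had the smallest range over the 8 group means. Ranbp2, a nuclear pore protein that also acts as a SUMO ligase, has a wholly coding inner bin of 4663 bp (chromosome 10, 58476157 to 58480819) that held 35.6% to 38.3%. The Gja1 bin, in the last exon of the connexin 43 gene, held 71.0% to 79.9%.

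Over the 8 group means, the median range of a bin's share was 3.14 percentage points, 75 bins ranged over 10 points or more, and 8 over 20 or more. Replicate libraries of 1 group differed in a bin's share by a median of 1.08 points in control clone 1 to 1.65 points in WT. The largest range belonged to Emilin1, which codes for a glycoprotein of elastic fibres, but this gene had almost no counts in some groups. Its exons had 0 and 1 counts in RBM45 KO clone 2, and 3, 3, 4 and 8 in the KO rescue libraries, against 313, 262, 216 and 301 in the controls. Where the gene was read, the bin (chromosome 5, 30916934 to 30918859, 1926 bp, wholly coding) held 35.5% to 41.3% of its counts in METTL3 KO and RBM45 KO clone 1 and 37.0% to 39.9% in controls. The bins whose group means followed Emilin1 most closely, in Brap, Tbl1xr1 and Nde1 (r of 0.95, 0.94 and 0.94 over 8 groups), did so through RBM45 KO clone 2, since r over the other 7 groups was 0.34, 0.16 and −0.09.

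In 124 bins the gene had fewer than 100 exon counts in at least 1 library, a limit set after seeing the data. Among the other 1635 bins the widest range was 21.9 points, 32 bins ranged over 10 points or more and 3 over 20 or more, in Styx, Ythdf2 and Slc7a11. The Styx bin (chromosome 14, 45376884 to 45385507) held 74.6% and 64.6% in METTL3 KO, 53.4%, 52.0%, 54.1% and 44.2% in RBM45 KO, 55.6%, 56.6%, 56.1% and 48.3% in KO rescue, 58.8%, 60.5%, 72.7% and 58.7% in controls, and 77.0% and 65.1% in WT. METTL3 KO and WT were both high, and a gene on the other strand overlaps it. Slc7a11, the cystine and glutamate antiporter gene, had 12.4% and 46.3% in the 2 WT libraries. That gap came from the other bins of the gene, since the first WT library had 71 counts in the bin among 574 in the gene and the second 100 among 216.

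Ythdf2 codes for an m6A reader that promotes decay of bound mRNA, and its bin (chromosome 4, 132204132 to 132205513, 1382 bp, wholly coding) stood apart in 1 library. RBM45 KO clone 1 replicate 1 had 78.6%, with 919 counts in the bin of 1169 in the gene, while the other 3 RBM45 KO libraries had 41.9%, 42.5% and 42.2%. All libraries outside RBM45 KO lay between 37.9% and 46.0%. The other bins of Ythdf2 together had 250 counts in that library and 316 in its replicate, in which the bin itself had 228. The usage change of RBM45 KO against the controls was 0.53 on the log2 scale (SE 0.30; diffSpliceDGE of edgeR, adjusted p = 1.00) and 0.05 without that library.

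**Figure D2:**
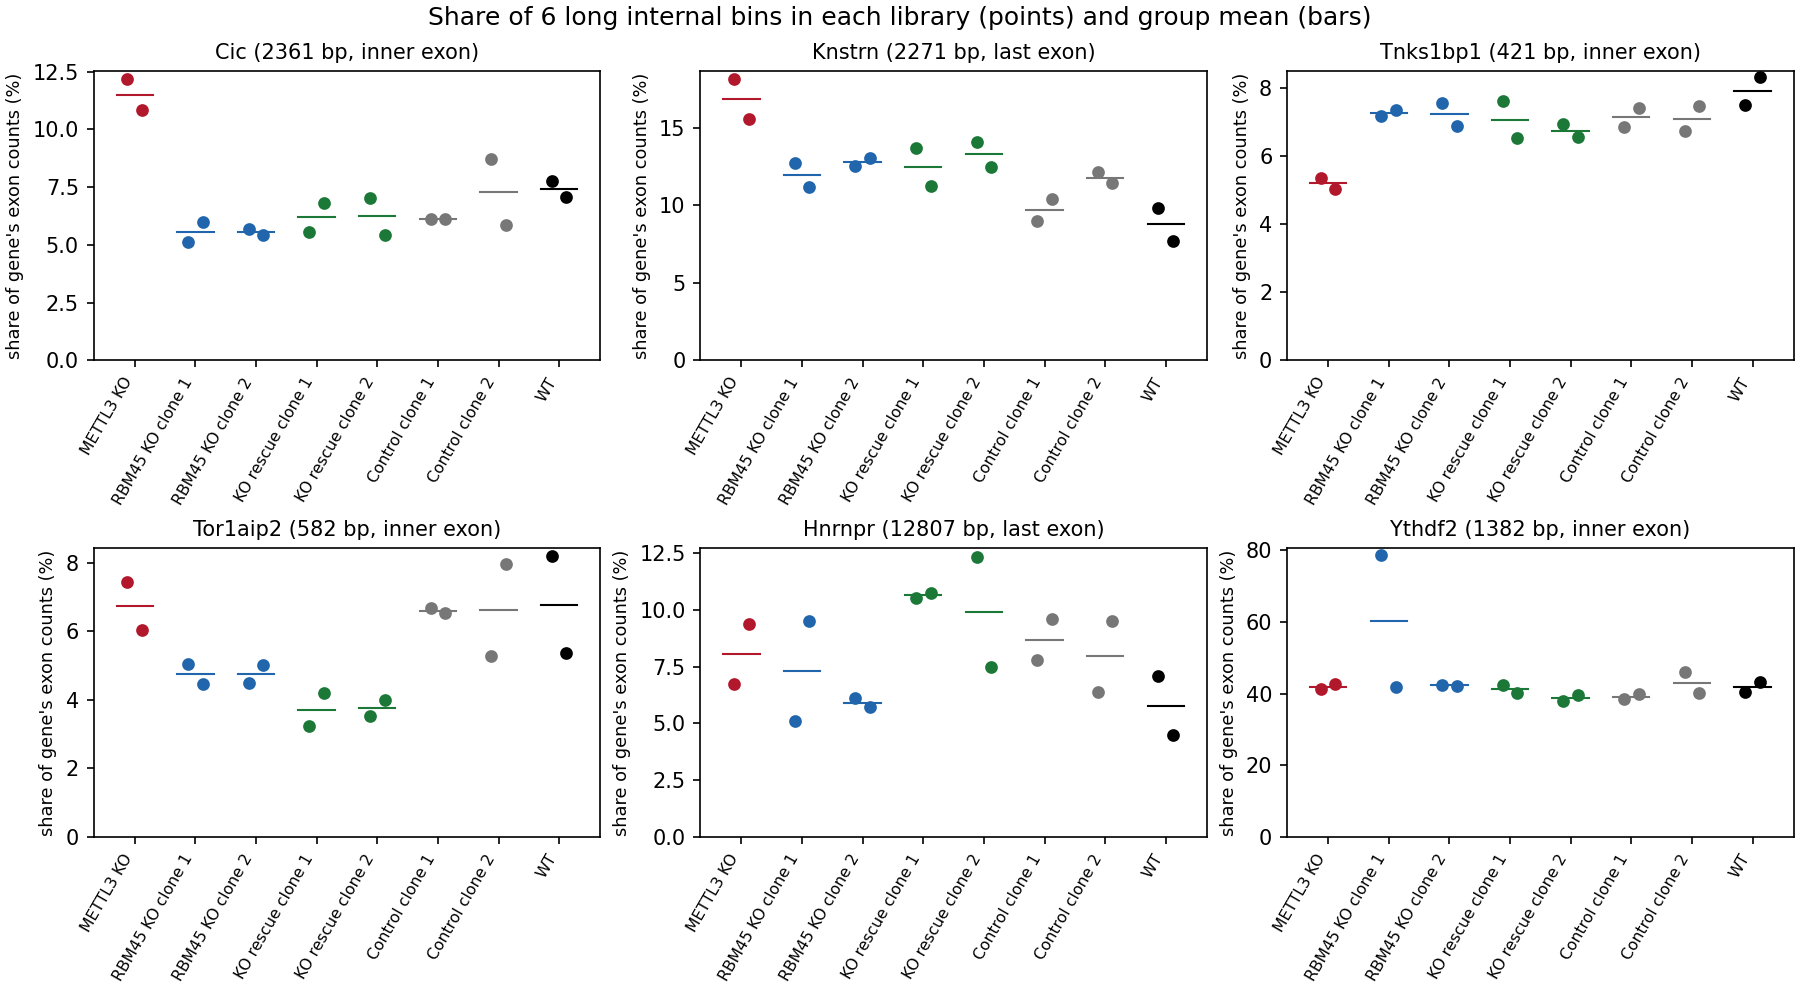
Share of the gene's exon counts, in percent, of 6 long internal bins in each of the 16 libraries (points, replicate 1 left of replicate 2), with the mean of each group as a bar. The METTL3 KO points lie highest for Cic and Knstrn and lowest for Tnks1bp1, the rescue points lie lowest for Tor1aip2, and 1 RBM45 KO library stands at 78.6% for Ythdf2.

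Changes in usage were tested with diffSpliceDGE of edgeR on all 91789 bins that averaged 10 counts or more, and p-values were adjusted by Benjamini-Hochberg over these. The log2 value it gives is a bin's change relative to its whole gene, the bin included, which understates the change of a bin that holds much of its gene. For 9 of the 1759 bins no other bin of the gene reached 10 counts, so 1750 were tested. Beside it stands a fit, chosen after seeing the data, that sets each bin against the other bins of its gene (edgeR with other-bin offsets). It takes the counts of those other bins as fixed, without their own spread, and was the less strict test. Between clones of 1 genotype its unadjusted p was under 0.05 in 7.77% (controls), 8.97% (RBM45 KO) and 6.69% (KO rescue) of long bins. In every comparison that percentage was higher for long bins than for all tested bins, the reverse of diffSpliceDGE. In bulk RNA, fewer cells that use an exon and less use per cell cannot be told apart.

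For METTL3 KO against WT, which compares 1 clone with its parental line, no long internal bin passed the adjusted threshold of 0.05, as 12 of all tested bins did (0.0131%). At an unadjusted p under 0.05 by diffSpliceDGE there were 18 long bins (1.03%), where 2.69% of all tested bins were. By edgeR with other-bin offsets the order was reversed, with 9.94% of long bins and 6.14% of all tested bins. Whether long bins lay below or above the background thus depended on the fit. With limma's diffSplice 1 long bin passed, where 0.0251% of all bins did, and with DESeq2 none, where 0.0196% did. With other-bin offsets 4 long bins passed, 2 higher and 2 lower, where 0.0904% of all bins did. The median change of the 1750 bins was −0.0081 on the log2 scale, with the 5% to 95% range from −0.30 to 0.31, while the median over all tested bins was −0.0050. Shares of both METTL3 KO libraries were above both WT libraries in 290 bins (16.6%) and below them in 329 (18.8%), where 16.5% and 18.1% of all tested bins did so. These shares are near the background, so they are no result about long bins.

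Predicted genes (Gm, Rik, BC and AC symbols) left aside, the 5 bins with the smallest p, none of which passed, were in Knstrn, Osbpl3, Cic, Adgrl2 and Tnks1bp1. Knstrn codes for a kinetochore protein of the mitotic spindle, and its bin is the untranslated part of a last exon (chromosome 2, 118834643 to 118836913). It held 18.1% and 15.6% in METTL3 KO, against 9.80% and 7.71% in WT. Both METTL3 KO libraries lay above all other libraries, of which the highest had 14.1%. The log2 change was 0.97 (SE 0.23, adjusted p = 0.272 by diffSpliceDGE), with an adjusted p of 0.0365 by limma, 0.121 by DESeq2 and 0.00352 with other-bin offsets.

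The bin of the lipid transfer protein gene Osbpl3 had 6.30% and 5.52% in METTL3 KO, against 2.26% and 3.40% in WT (log2 1.00, SE 0.26, adjusted p = 0.548 by diffSpliceDGE). The controls had 3.89%, 4.07%, 4.34% and 5.08%, and WT was thus the low group. Adgrl2, the adhesion receptor latrophilin 2, had 7.45% and 9.80% in METTL3 KO, against 5.63% and 5.49% in WT (log2 0.74, SE 0.29, adjusted p = 1.00 by diffSpliceDGE). Tnks1bp1, which codes for a protein that binds tankyrase, was the one of the 5 with a lower share, 5.37% and 5.05% in METTL3 KO against 7.49% and 8.33% in WT (log2 −0.61, SE 0.22, adjusted p = 1.00 by diffSpliceDGE). Every other library had at least 6.53%. Its wholly coding inner bin of 421 bp has neither motif. The p of one such gene, 1600012H06Rik, which was named after its values were seen, was smaller than those of Adgrl2 and Tnks1bp1. Its bin had 35.6% and 34.6% in METTL3 KO, against 14.6% and 26.4% in WT, on 48 and 89 counts in METTL3 KO and 23 and 38 in WT (log2 0.91, SE 0.29, adjusted p = 1.00 by diffSpliceDGE, and 0.0153 by edgeR with other-bin offsets). Both METTL3 KO libraries lay above all others, and the WT libraries differed widely from each other.

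METTL3 KO against the Cas9 controls gave the single long bin that passed by diffSpliceDGE in any comparison, in Cic, the gene of the transcriptional repressor capicua. This contrast sets 1 METTL3 KO clone against 2 control clones. It was fitted on libraries, so its p-values rest on the spread between replicate libraries and not between clones. At this contrast 38 of all tested bins passed (0.0414%), and 26 long bins (1.49%) had an unadjusted p under 0.05, where 2.67% of all tested bins had. By edgeR with other-bin offsets 9.77% of long bins and 6.32% of all tested bins had one. By limma 3 long bins passed, where 0.115% of all bins did, and by DESeq2 1, where 0.0599% did. The Cic bin (chromosome 7, 25271273 to 25273633, 2361 bp, inner and wholly coding, bin 4 of 51) held 12.2% and 10.8% in METTL3 KO, against 6.13%, 6.11%, 8.70% and 5.87% in the controls. It held 7.75% and 7.06% in WT and 5.11% to 7.04% in RBM45 KO and KO rescue. No library of another group reached the METTL3 KO shares, which rest on 98 and 169 counts. The log2 change was 0.79 (SE 0.15, adjusted p = 0.0212 by diffSpliceDGE), and limma, DESeq2 and the other-bin offsets gave adjusted p-values of 0.000162, 0.0181 and 0.000160. The call was lost, with adjusted p from 0.0894 to 0.914, when either METTL3 KO library or 1 of 3 of the 4 control libraries was left out, and was also lost with a higher (0.263) or no (0.244) limit on counts. Against WT the log2 change of the Cic bin was 0.64 (SE 0.18). There it did not pass by diffSpliceDGE, limma, DESeq2 or the offsets. Over the gene, Cic exons averaged 158 CPM in METTL3 KO, against 179 and 107 CPM in control clones 1 and 2.

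With other-bin offsets 7 long bins passed against the controls, 6 higher and 1 lower in METTL3 KO, where 0.275% of all bins passed. These were Cic, Knstrn, Sod2, Scrn1, Hnrnpu and the predicted gene Gm17344, all higher, and a bin of Vgll3, lower; those outside the first 2 were named after their values were seen, apart from Gm17344. Sod2, the mitochondrial superoxide dismutase, had 27.6% and 27.0% in METTL3 KO against 21.5%, 16.1%, 16.9% and 16.4% in controls for its last-exon bin (offset log2 0.82, adjusted p = 0.00120 by edgeR; diffSpliceDGE adjusted p = 0.375). Vgll3, a cofactor of TEAD transcription factors, has 2 long bins, and against WT both were called lower by the offsets (log2 −0.57 and −0.58, adjusted p = 0.0277 and 0.0410 by edgeR). The coding one held 14.6% and 13.6% in METTL3 KO, against 18.6% and 19.9% in WT, and the last-exon one 12.9% and 11.9% in METTL3 KO, against 19.1% and 16.3% in WT. Both METTL3 KO libraries were the lowest of all 16 for each bin.

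For RBM45 KO against the Cas9 controls, on 2 clones each, no long bin passed, as 4 of all bins did (0.00436%), and no long bin had an unadjusted p under 0.05. This test is strict, since only 0.37% of all bins had a p under 0.05. By edgeR with other-bin offsets 8.46% of long bins and 5.57% of all bins had one. With other-bin offsets 1 long bin passed, in P2ry2, where 0.0577% of all bins did, and by limma or DESeq2 none, where 0.0109% and 0.00654% did. The median change was 0.0077 (log2), with the 5% to 95% range from −0.18 to 0.17, and the median over all bins was −0.0027. All 4 RBM45 KO libraries lay above all 4 controls in 22 bins (1.26%) and below in 25 (1.43%), where 1.57% and 1.55% of all tested bins did. These shares are near or under the background.

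Predicted genes left aside, the 5 smallest p were in Tor1aip2, Tsc22d1, Tardbp and Rassf8, beside Ythdf2, and none passed. Tor1aip2 codes for a membrane cofactor of torsin ATPases, and its inner bin (chromosome 1, 156061588 to 156062169, 582 bp) held 5.05%, 4.45%, 4.48% and 5.01% in RBM45 KO, against 6.67%, 6.53%, 5.29% and 7.96% in the controls. The groups did not overlap, with a log2 change of −0.50 (SE 0.27, adjusted p = 1.00 by diffSpliceDGE). Rassf8, a Ras association domain gene, had 13.99%, 14.3%, 16.5% and 13.5% in RBM45 KO, against 18.1%, 19.4%, 17.2% and 21.2% in the controls (log2 −0.41, SE 0.26, adjusted p = 1.00 by diffSpliceDGE). Tardbp, which codes for the RNA-binding protein TDP-43, had 5.27%, 3.12%, 2.53% and 2.41% in RBM45 KO, against 4.26%, 5.35%, 3.34% and 4.05% in the controls, so that the groups overlapped. Tsc22d1, a leucine zipper gene induced by TGF-beta, overlapped as well, with 2.68%, 3.12%, 3.82% and 3.22% in RBM45 KO, against 2.70%, 2.89%, 1.47% and 2.04% in the controls.

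For KO rescue against RBM45 KO no long bin passed, as 1 of all bins did (0.00109%). By diffSpliceDGE 1 long bin (0.0571%) had an unadjusted p under 0.05, where 0.478% of all bins had. By edgeR with other-bin offsets 7.71% of long bins and 5.65% of all bins had one. By limma or DESeq2 none passed, where 0.0109% and 0.00654% of all bins did, and with other-bin offsets 3 did, 1 higher and 2 lower, where 0.0697% of all bins did. Rescue libraries all lay above RBM45 KO in 28 bins (1.6%) and below in 31 (1.77%), where the background was 1.6% and 1.76%. The median change was 0.0027 (log2), against −0.0016 over all bins. The smallest p was for the 12807 bp bin of Hnrnpr, which held 10.5%, 10.8%, 12.3% and 7.46% in KO rescue, against 5.12%, 9.51%, 6.11% and 5.73% in RBM45 KO. The groups overlapped through 1 library each. Its log2 change was 0.65 (SE 0.24, adjusted p = 1.00 by diffSpliceDGE), with an adjusted p of 0.0122 by edgeR with other-bin offsets, and a gene on the other strand overlaps the bin.

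Fubp1, which codes for a protein that binds single-stranded DNA and RNA, had 4.04%, 4.09%, 5.58% and 4.11% in KO rescue, against 3.15%, 3.12%, 2.87% and 3.93% in RBM45 KO, with no overlap (log2 0.48, SE 0.24, adjusted p = 1.00 by diffSpliceDGE). Smtn, the gene of the actin-binding protein smoothelin, had 9.61%, 10.2%, 11.5% and 10.8% in KO rescue, against 9.82%, 6.77%, 8.06% and 7.13% in RBM45 KO, and Tatdn2 15.7%, 14.2%, 19.6% and 17.1% in KO rescue, against 14.3%, 11.6%, 13.8% and 10.0% in RBM45 KO. For both, 1 RBM45 KO library reached into the rescue range. Of the 2 bins that the offsets called lower, 1 was in Prdm2, named after its values were seen. Prdm2 codes for a zinc finger methyltransferase, and its 4390 bp bin held 69.0%, 70.2%, 70.4% and 73.5% in KO rescue, against 73.2%, 76.1%, 79.4% and 78.6% in RBM45 KO (offset log2 −0.44, adjusted p = 0.0144 by edgeR). The diffSpliceDGE value for this bin, which is most of its gene, was −0.09.

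For KO rescue against the Cas9 controls no long bin passed, as 6 of all bins did (0.00654%), and 4 long bins (0.229%) had an unadjusted p under 0.05, where 0.541% of all bins had. These 4 were in Tor1aip2, 1600012H06Rik and both long bins of 2900026A02Rik. By edgeR with other-bin offsets 10.9% of long bins and 6.87% of all bins had an unadjusted p under 0.05. With other-bin offsets 9 passed, 3 higher and 6 lower, where 0.202% of all bins did, and by limma or DESeq2 none, where 0.0305% and 0.024% did. Rescue libraries all lay above the controls in 37 bins (2.11%) and below in 39 (2.23%), where 1.96% and 2.19% of all bins did. The median change was 0.0086 (log2), against −0.0031 over all bins. This contrast shares its controls with RBM45 KO against controls and its rescue libraries with the contrast before.

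Tor1aip2 had the smallest p among the named bins, with 3.24%, 4.20%, 3.55% and 3.99% in KO rescue, against 6.67%, 6.53%, 5.29% and 7.96% in the controls. The groups did not overlap, and RBM45 KO lay between them. Its log2 change was −0.85 (SE 0.27, adjusted p = 1.00 by diffSpliceDGE on clones), with an adjusted p of 0.000839 by edgeR with other-bin offsets, and the offsets gave 0.349 for RBM45 KO against the controls. Macf1, the microtubule and actin crosslinker, had 1.38%, 1.34%, 1.24% and 1.14% in KO rescue, against 0.877%, 0.801%, 0.944% and 0.766% in the controls (offset adjusted p = 0.0283 by edgeR). Map3k10, a kinase of the JNK pathway, had 23.2%, 19.5%, 23.3% and 23.2% in KO rescue, against 36.9%, 29.1%, 31.9% and 28.7% in the controls (offset adjusted p = 0.0161 by edgeR). Luc7l2, a splicing factor of the U1 particle, had 4.56%, 4.05%, 3.50% and 4.01% in KO rescue, against 5.67%, 5.67%, 5.52% and 5.83% in the controls (log2 −0.48, SE 0.22, adjusted p = 1.00 by diffSpliceDGE). Tsc22d1 had 3.06%, 2.89%, 4.20% and 2.99% in KO rescue, against 2.70%, 2.89%, 1.47% and 2.04% in the controls.

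The other bins called by the offsets in KO rescue against the controls were in Slc7a11, P2ry2, Pstk and the Rik genes 1600012H06Rik and 2900026A02Rik, named after their values were seen apart from Slc7a11. Both long bins of 2900026A02Rik were higher, the first with 22.4%, 22.1%, 23.8% and 25.7% in KO rescue, against 19.9%, 16.2%, 10.2% and 13.5% in the controls, and the second with 18.2%, 18%, 19.5% and 15.3% in KO rescue, against 13.1%, 11.5%, 7.82% and 6.11% in the controls. Offset adjusted p-values by edgeR were 0.0171 and 0.0365. The bin of Pstk, which codes for a kinase that acts on selenocysteine transfer RNA, was lower, with 46.8%, 29.1%, 37.3% and 41.5% in KO rescue, against 57.4%, 53.5%, 56.2% and 58.3% in the controls (offset adjusted p = 0.00520 by edgeR). The bin of P2ry2, a nucleotide receptor, was called lower by the offsets with overlapping shares, 60.7%, 55.3%, 63.6% and 57.9% in KO rescue against 67.6%, 68.6%, 57.9% and 70.4% in the controls.

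**Figure D3:**
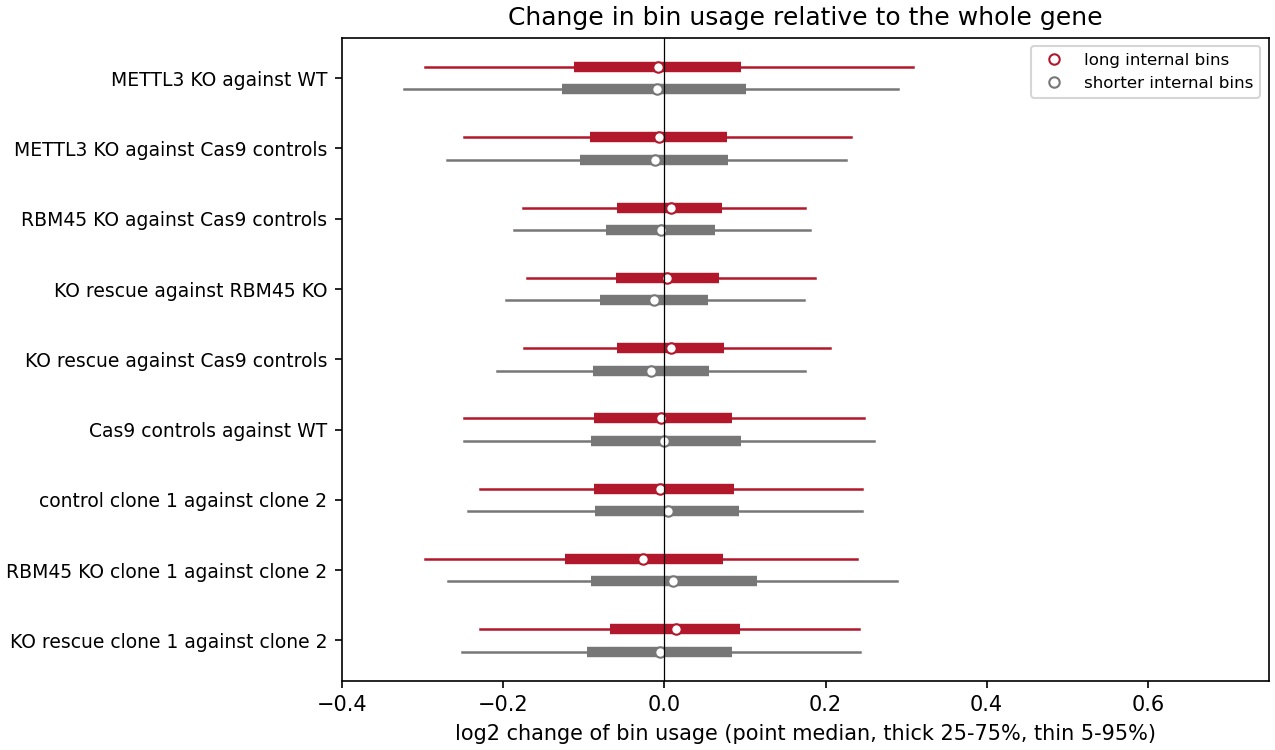
Log2 change of bin usage by diffSpliceDGE for 1750 long internal bins and 13417 shorter internal bins in 9 comparisons, with the median as a point, the 25% to 75% range as a thick line and the 5% to 95% range as a thin line. All medians lie within 0.03 of 0 on the log2 scale, including those of clone against clone.

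Cas9 controls set against WT show differences between cells that had no guide RNA, and the paired clones show differences within a labelled genotype. Whether the clones of a genotype carry the same edit was not tested. The Cas9 controls against WT gave no long bin past the threshold and no bin of all tested (0%), with 13 long bins (0.743%) at an unadjusted p under 0.05, where 2.08% of all bins were. None passed by limma, DESeq2 or the other-bin offsets, where 0%, 0.00109% and 0.00436% of all bins did. Predicted genes left aside, the 5 smallest p were in Mycbp2, Runx1, Hnrnpr, Osbpl3 and Ssbp3, with log2 changes of 0.81, 0.66, 0.64, 0.58 and −0.51 and adjusted p = 1.00 by diffSpliceDGE for each. Mycbp2, a ubiquitin ligase of growing axons, had 7.20%, 7.41%, 8.84% and 7.66% in the controls, against 3.19% and 5.08% in WT. Control clone 1 against clone 2 gave 0 long bins, where 12 of all bins passed (0.0131%), with 11 long bins (0.629%) at an unadjusted p under 0.05, where 1.74% of all bins were. KO rescue clone 1 against clone 2 gave 0 of 1750 and 0 of all bins (0%), with 6 long bins (0.343%) at an unadjusted p under 0.05, where 1.54% of all bins were. In both of these limma, DESeq2 and the other-bin offsets called no long bin. Of all bins they called 0.012%, 0.0153% and 0.0392% between the control clones and 0%, 0.00218% and 0.00436% between the rescue clones.

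RBM45 KO clone 1 against clone 2 gave no long bin, where 1 of all bins passed (0.00109%), with 14 long bins (0.8%) at an unadjusted p under 0.05, where 2.16% of all bins were. With other-bin offsets 1 long bin passed, Chid1, where 0.0577% of all bins did, and by limma or DESeq2 none, where 0.00763% and 0.0153% did. Chid1, which codes for a chitinase domain protein and was named after its values were seen, had 25% and 26.3% in RBM45 KO clone 1 against 41.5% and 37.7% in clone 2 (offset log2 −0.97, adjusted p = 0.00540 by edgeR). Control clones 1 and 2 also stood apart, with 27.7% and 25% in one and 36.5% and 36.1% in the other. The median change of all long bins was −0.027 (log2), against 0.0051 over all tested bins. Of the long bins 42.2% were positive, against 50.8% of all tested bins. In last-exon bins the median was −0.036.

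Summed over all 1759 bins, the long bins held 20.2% and 20.1% of their genes' exon counts in METTL3 KO, 19.3%, 19.4%, 19.8% and 20.03% in RBM45 KO, 19.8%, 19.5%, 19.6% and 19.4% in KO rescue, 19.6%, 19.6%, 19.8% and 19.7% in the controls, and 19.5% and 19.9% in WT. METTL3 KO lay above all other libraries by a narrow margin, and the 2 RBM45 KO clones differed by −0.545 points (clone 1 minus clone 2), against 0.437 points for METTL3 KO minus WT. The inner-exon class held 16.4% to 17.1% in all libraries, with 16.8% and 16.8% in METTL3 KO and 16.7% and 16.9% in WT. The last-exon class had 17.7% and 17.4% in METTL3 KO and 16.9% and 17.4% in WT. Sums are dominated by highly counted genes, and no test was made on them.

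**Figure D4:**
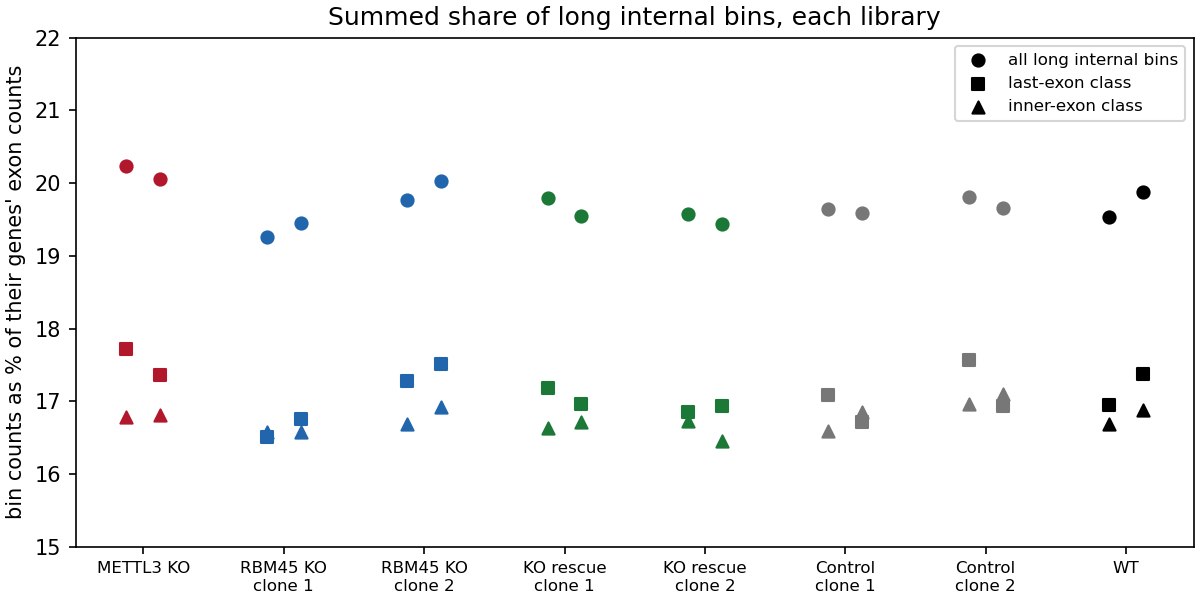
Counts of long internal bins as a percentage of all exon counts of their genes, for each of the 16 libraries (2 points a group, replicate 1 on the left), for all 1759 bins (circles), the last-exon class (squares) and the inner-exon class (triangles). The vertical axis starts at 15%, and all libraries lie between 19.3% and 20.2% for all bins.

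Host genes were also read by the roles of their products, in lists chosen with earlier results of these data known. By diffSpliceDGE no long bin of any list passed in the RBM45 comparisons or in METTL3 KO against WT. Cic, the one bin that passed by that test in METTL3 KO against the controls, is in none of the lists. The other-bin offsets called Macf1, of the cytoskeleton list, in KO rescue against the controls. The m6A machinery had 10 bins in 6 genes, with a median usage change of −0.037 in METTL3 KO against WT (2 positive and 8 negative), −0.0019 in METTL3 KO against the controls (4 and 6), −0.0056 in RBM45 KO against the controls (5 and 5) and −0.0025 in KO rescue against RBM45 KO (5 and 5), where all tested bins had medians of −0.0050, −0.0012, −0.0027 and −0.0016. Prrc2a, a reader with 2 long coding bins, had 16.4% and 14.1% in METTL3 KO, against 13.9% and 15.9% in WT, for its 1767 bp bin. Ythdf3, a reader of the same family as Ythdf2, had 37.3% and 34.1% in METTL3 KO, against 39.9% and 35.7% in WT. For both bins the METTL3 KO and WT shares overlapped.

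DNA repair and genome maintenance genes had 27 bins in 15 genes. Their medians were 0.039 in METTL3 KO against WT (14 positive, 13 negative) and −0.022 in METTL3 KO against the controls (11 and 16). They were 0.036 in RBM45 KO against the controls (16 and 11) and −0.045 in KO rescue against RBM45 KO (7 and 20). RBM45 KO enters these last comparisons with opposite sign, so opposite medians there are partly built in. KO rescue against the controls gave 0.0027 (14 and 13). Mki67, the proliferation antigen that coats mitotic chromosomes, has a coding bin of 6836 bp with 61.4% and 62.7% in METTL3 KO and 62.9% and 59.0% in WT. The bin of the mismatch repair gene Msh6 held 35.9% and 39.1% in METTL3 KO and 40.7% and 36.4% in WT. Nipbl, the cohesin loader, had 10.7%, 10.98%, 11.8% and 12.6% in RBM45 KO, against 10.7%, 11.4%, 11.4% and 13.1% in the controls.

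Chromatin and transcription regulators were the largest list, with 79 bins in 43 genes, 55 of them in inner exons. Medians were −0.034 in METTL3 KO against WT (32 positive, 47 negative), −0.013 in METTL3 KO against the controls, −0.0026 in RBM45 KO against the controls and −0.00051 in KO rescue against RBM45 KO. The 7896 bp coding bin of Spen, a corepressor known for its part in X inactivation, held 59.1% and 54.3% in METTL3 KO and 57.1% and 54.4% in WT. Ankrd11, a regulator of histone acetylation, held 47.7%, 49.8%, 47.1% and 50.2% in RBM45 KO and 48.1%, 50.3%, 49.4% and 50.9% in the controls for its bin of 6048 bp. The histone methyltransferases Kmt2d and Ash1l held 10.2% to 12.8% and 31.6% to 37.5% over all 16 libraries.

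RNA binding and processing genes had 44 bins in 24 genes, with medians of −0.0063 in METTL3 KO against WT and −0.0088 in METTL3 KO against the controls. They were 0.039 in RBM45 KO against the controls (28 positive, 16 negative) and −0.019 in KO rescue against RBM45 KO (16 and 28). These share RBM45 KO with opposite sign, and KO rescue against the controls gave −0.00062 (21 and 23). Son, whose repeat-rich stretch is printed above, held 50.7%, 52.7%, 49.0% and 47.9% in RBM45 KO, against 50.8%, 45.9%, 49.2% and 49.1% in the controls. The adjoining bins of Srrm2, a spliceosome scaffold of nuclear speckles, stayed within 23.7% to 26.8% and 19.9% to 22.8% over all 16 libraries.

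Cytoskeleton genes had 65 bins in 36 genes, with medians of −0.015 in METTL3 KO against WT, 0.012 in METTL3 KO against the controls, 0.016 in RBM45 KO against the controls and 0.0060 in KO rescue against RBM45 KO. Map1b, a neuronal microtubule protein, differed in level between clones. Its exons averaged 28.3 and 270 CPM in RBM45 KO clones 1 and 2, 290 and 253 CPM in KO rescue, and 44.9 and 211 CPM in control clones 1 and 2, and its 4735 bp coding bin held 34.2% to 40.6% in all these libraries. The longer of 2 long bins named in Nes, an intermediate filament gene of neural progenitors, held 22.8% to 26.1% over all libraries. Adhesion and signalling genes had 41 bins in 22 genes with medians of 0.022, 0.022, 0.030 and 0.0081 in the same 4 comparisons. Some lists differed as much between clones of 1 genotype. The median was 0.042 for cytoskeleton genes in KO rescue clone 1 against clone 2 (44 positive, 21 negative). For adhesion genes it was −0.058 in RBM45 KO clone 1 against clone 2 (12 and 29). The inner bin of the protocadherin Fat1 held 20.1% to 24.4% and that of the matrix protein Tnc 13.2% to 15.9%.

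Zinc finger genes had 41 bins in 36 genes, 40 of them tested, with larger shares (median 28.2%) and a median range of 5.75 points over the groups. Their medians were −0.029 in METTL3 KO against WT, 0.016 in METTL3 KO against the controls, 0.027 in RBM45 KO against the controls and 0.018 in KO rescue against RBM45 KO. Zfp106, a zinc finger gene of neuromuscular upkeep, held 17.8% and 16.8% in METTL3 KO and 17.9% and 16.7% in WT. Zfp142 held 32.2% and 31.0% in METTL3 KO and 32.5% and 31.3% in WT. The last-exon bin of Zfp740 held 46.5%, 43.3%, 49.8% and 47.1% in RBM45 KO, against 45.7%, 41.1%, 44.1% and 41.9% in the controls, with overlap of 1 RBM45 KO library.

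The letters of the bins were searched for GGACT and its core GGAC, and for GACGAC, on the transcribed strand of 1757 bins with sequence. The long bins had 1.05 GGACT matches per kilobase, against 1.06 in shorter internal bins, and 62.9% of long and 12.8% of shorter bins held at least 1, as their lengths differ. Within the inner-exon class the density was 1.18 per kilobase in long and 1.04 in shorter bins, and within the last-exon class 0.946 in long and 1.21 in shorter bins. GGAC was less dense in long bins (3.93 against 4.90 per kilobase), as was GACGAC (0.108 against 0.183). Within inner exons long and shorter bins were close, with 4.79 and 4.91 for GGAC and 0.171 and 0.179 for GACGAC. Within last exons they were 3.22 and 4.25 for GGAC and 0.0628 and 0.157 for GACGAC. Median G and C content was 49.9% in long bins and 51.9% in shorter ones. In inner exons it was higher in long bins (53.5% against 51.6%), and in last exons lower (46.3% against 50.7%). These are descriptions with no test.

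**Figure D5:**
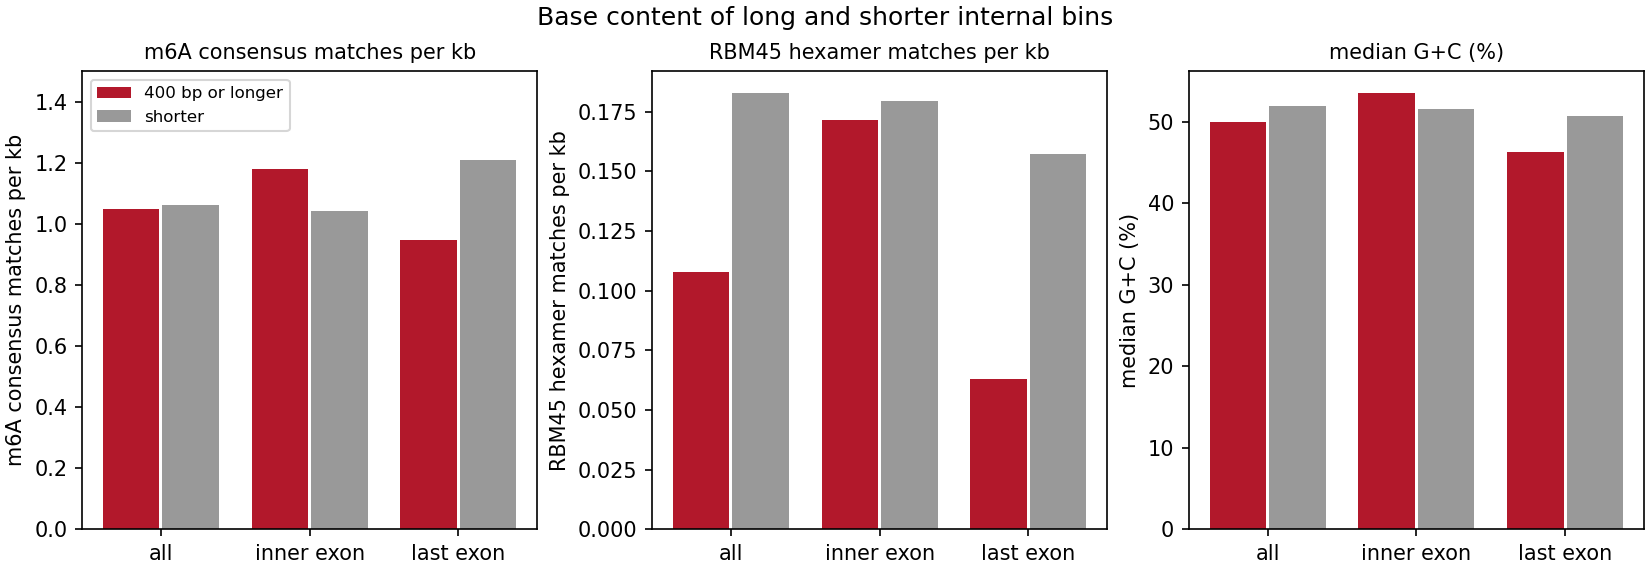
Matches per kilobase of the m6A consensus (left) and of the RBM45 hexamer (middle), and median G and C content in percent (right), for long and shorter internal bins: all, inner-exon class and last-exon class. The long inner-exon bins have 1.18 consensus matches per kilobase and the long last-exon bins 0.946.

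Bins with and without a motif had similar medians. In METTL3 KO against WT the median log2 change was −0.010 in 652 bins without GGACT, −0.0077 in 1096 bins with at least 1 and −0.012 in 270 with at least 3, and 48.0%, 48.4% and 47.0% of these tested bins were positive. In RBM45 KO against the controls it was 0.0055 in 193 bins with GACGAC and 0.0081 in 1555 without it, and in KO rescue against RBM45 KO 0.00016 with it and 0.0030 without. A match is a description of the letters and not of a methylated or bound site.

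Near the limits of the rule, the bins of Ptpa, Mapk1ip1l and Mtdh had exactly 400 bp with shares of 13.3%, 18.7% and 7.39%, and those of Tnks1bp1 and Calm3 just outside had 399 and 398 bp with 8.31% and 12.4%. By counts, Tmem161a, Phospho2 and Sin3a were just inside with means of 50, 50 and 50.1, and Fbxw2, Lpcat1 and Tle3 just outside with 49.9, 49.8 and 49.7. An antisense gene overlapped 196 long bins (11.1%), against 5.43% of the shorter ones. For these bins the counts cannot be told from reads of the other strand, since the library kit does not mark strand.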

How the data were processed

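Ribodepleted total RNA gave 16 libraries, whose kit keeps no strand, per the labels' protocols. Raw fragment counts per bin were deposited, made with featureCounts 1.6.3 on a flattened Ensembl 98 annotation of GRCm38 for exons and genes and of RefSeq mm10 for introns, per the file headers. Every bin on the fragment's strand that held at least 0.1 of a fragment received it, as the headers record. Since the kit keeps no strand, that strand does not tell which strand the RNA came from. The counts of a bin can therefore include RNA of a gene on the other strand. The submitters' processing notes name HISAT2 2.1.0 and mm10. The labels name 4 control libraries, and the 4 columns left over after all others were matched by name were read as these; the clone numbers of RBM45 KO, KO rescue and controls follow column names and are not matched to the labels' numbers.

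A share is a bin's counts as a percentage of its gene's exon-bin counts. The 3 RBM45 comparisons were fitted on the summed counts of 6 clones (3 residual degrees of freedom) and all others on 16 libraries (8 residual degrees of freedom), with diffSpliceDGE of edgeR 4.0.16 in R 4.3.3 and TMM scaling. The scripts were tested on simulated data. Alternatives were limma 3.58.1, DESeq2 1.42.0 and edgeR with the other bins' counts as offset. Figures and tables used Python 3.11.15, pandas 2.3.3 and matplotlib 3.10.9. CPM are counts over TMM-scaled library sizes.

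The bins, lists and rules were chosen with earlier results of these data known. Exon classes, the limit of 100 gene counts and the offsets were chosen after seeing the data. Named bins are the 5 longest, the 5 with most counts per kilobase, those that pass in a comparison (else the 5 with the smallest p, leaving out predicted genes, with symbols in Gm, Rik, BC or AC), the 8 with the widest and 5 with the narrowest range, those next to the limits, up to 4 per list, and the 3 most like the bin of widest range. P-values rest on the spread between these libraries or clones, part of which may be technical. Counts carry no molecular identifiers. A few bins that the rules name are not reported here.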

Additional observations from a re-analysis of the deposited data

Results flagged for a closer look

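In groups of 4 libraries, 13 shares of named bins stood apart from the other 3 by more than Dixon's 95% criterion of 0.829. The search covered 234 groups of 78 bins, and chance alone sets about 1 in 20 apart. Ythdf2 in RBM45 KO clone 1 replicate 1 was the clearest, at 78.6% against 41.9% to 42.5% in the other RBM45 KO libraries. Scrn1 stood at 27.7% in the same library, against 24.4% to 25%.

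Among the KO rescue libraries, replicate 1 of clone 2 was high for Tsc22d1 (4.20%, against 2.89% to 3.06%) and Fubp1 (5.58%, against 4.04% to 4.11%). Replicate 2 of clone 2 was low for Styx (48.3%, against 55.6% to 56.6%) and high for Nes (24.8%, against 22.8% to 23.1%). Replicate 2 of clone 1 was low for Map3k10 (19.5%, against 23.2% to 23.3%).

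Among the controls, replicate 1 of clone 2 held 3 of the values. It was high for Styx (72.7%, against 58.7% to 60.5%) and for Cic (8.70%, against 5.87% to 6.13%), and low for Adgrl2 (3.05%, against 6.77% to 7.25%), where it had 6 counts. Replicate 2 of clone 2 was high for Emilin1 (39.9%, against 37.0% to 37.4%). Replicate 1 of clone 1 was high for Tpm4 (37.5%, against 37.2% to 37.2%) and Sod2 (21.5%, against 16.1% to 16.9%).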

How the results depend on the processing

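The number of long bins called depended on the test. For METTL3 KO against WT it was 0, and 1 by limma and 4 by edgeR with other-bin offsets. For METTL3 KO against the Cas9 controls it was 1, and 0 with no limit on counts or a limit of 50, 3 by limma, 7 with the offsets, and 0 to 1 when 1 replicate was left out. For RBM45 KO against the controls it was 0 and 1 with the offsets, for KO rescue against RBM45 KO 0 and 3 with the offsets, and for RBM45 KO clone 1 against clone 2 0 and 1 with the offsets. For KO rescue against the controls it was 0, and 9 with the offsets and 3 in the 16-library fit. For the controls against WT it was 0, and 1 with no limit on counts. The cause was not tested. Leaving out a library or clone left 0 calls in the other 8 comparisons, and RLE scaling, DESeq2, length limits of 300 and 600 bp and a limit of 100 counts moved no count. For the 26 named bin results, 416 of 431 alternative values kept direction and side of the threshold, 7 lost the call (Cic), 8 gained it and 0 reversed.

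Same-numbered libraries did not deviate together in every pair of groups (r of shares from −0.11 to 0.080, over 0.1 in 0 of 28 pairs; r of log2 CPM from −0.45 to 0.43, over 0.1 in 15 of 28), so the numbers were not taken to pair the samples. With a replicate block the count was 1 for METTL3 KO against the controls, 3 for KO rescue against the controls in the 16-library fit, and 0 elsewhere. Bins of few counts set the depth limit: at the median a long bin had 93.7 counts per library.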

Other observations

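A further 4 bins were among the 8 with the widest range over the group means, and their genes had few exon counts. Sync, which codes for the intermediate filament protein syncoilin, held 28.3% and 26.7% in METTL3 KO, 36.7%, 34.4%, 46.1% and 45.2% in RBM45 KO, 44.3%, 42.6%, 45.2% and 51.8% in KO rescue, 44.2%, 38.5%, 38.8% and 35.6% in the controls, and 35.0% and 38.8% in WT. METTL3 KO was below all other libraries, on 17 and 27 counts in the bin (log2 −0.53, SE 0.24, adjusted p = 1.00 by diffSpliceDGE against the controls). Gsdme, the gene of a pore-forming gasdermin, held 60%, 51.4%, 40.0% and 49.4% in RBM45 KO, against 53.6%, 43.6%, 27.3% and 29.1% in the controls, so that control clone 2 was the low group. The predicted gene Gm17344 was likewise lowest in control clone 2, with 35.2% and 37.3%. Zfp697 held 51.6% and 55.9% in WT and 62.3% to 74.4% in all RBM45 KO, KO rescue and control libraries, with 46.5% and 68.0% in METTL3 KO; no other bin of this gene reached the limit of 10 counts, so it was not tested.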
